A study of Mus musculus with 16 samples.

Results

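DNA replication genes are described here in alveolar epithelial type II (AT2) cells of newborn mice. The 38 genes were chosen by symbol, from a list that covers the steps by which a cell copies its DNA, and all 38 were found among the 20725 named genes of the table. Their RNA was read on 16 Agilent arrays of 1 colour (Cy3). By title, the arrays fell into 6 of wild-type pups in hyperoxia, 4 of wild-type pups in normoxia, 2 of Fgf10+/- pups in hyperoxia and 4 of Fgf10+/- pups in normoxia, whereas the series text gives 4 per group; the titles were followed. Fgf10+/- pups are heterozygous for Fgf10, the gene of a fibroblast growth factor of the lung mesenchyme. All samples were taken at postnatal day 3; hyperoxia was 85% oxygen in a chamber between postnatal days 0 and 3. The sources used here do not say how the AT2 cells were isolated or whether a sample is 1 pup or a pool, so p-values measure only the spread between these samples, which may in part be technical.

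Replication starts when the origin recognition complex, with Cdc6 and Cdt1, loads the Mcm2 to Mcm7 ring onto DNA, and it fires when Cdc45 and the GINS complex join that ring. Primase and polymerase alpha then start each new strand, the clamp Pcna is loaded by replication factor C for the other polymerases, and Fen1 and Lig1 join the lagging strand pieces. Most of these genes are transcribed as cells enter S phase, under E2F factors, so their RNA marks dividing cells, and AT2 cells are a dividing progenitor of the newborn alveolar epithelium.

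The promoters of 3 members are shown because they hold letters of the kind E2F factors bind. These members are also among those whose values are given below, by array except in wild-type hyperoxia. The RefSeq table (GRCm38.p6) held promoters of 31 of the 38 members. The 250 bases before the start were searched on both strands for TTTCCCGC, TTTCGCGC, TTTGCCGC and TTTGGCGC. Matches on opposite strands can overlap where they share the letters GCGC. A match was found in 8 of 36 member promoters (22.2%) and in 611 of 32851 promoters of all genes (1.86%). The letters CCAAT, searched in the same way, were found in 19 of 36 member promoters (52.8%) and in 33.8% of all. A match describes letters only. Below, matches are in capitals and each sequence runs 5′ to 3′ on the strand of its gene.
Mcm6, chr1:128359706-128359955, minus strand: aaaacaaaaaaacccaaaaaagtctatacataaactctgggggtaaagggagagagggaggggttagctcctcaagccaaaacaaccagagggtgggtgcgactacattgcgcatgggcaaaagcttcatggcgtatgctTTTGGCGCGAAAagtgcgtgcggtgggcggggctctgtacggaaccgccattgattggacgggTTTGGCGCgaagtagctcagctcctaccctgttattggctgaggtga
Mcm5, chr8:75109259-75109508, plus strand: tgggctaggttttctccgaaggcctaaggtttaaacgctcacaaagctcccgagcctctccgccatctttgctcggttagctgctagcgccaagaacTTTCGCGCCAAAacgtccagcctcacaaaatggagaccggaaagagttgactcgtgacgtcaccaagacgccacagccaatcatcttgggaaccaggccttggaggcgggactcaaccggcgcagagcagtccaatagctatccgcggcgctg
Rfc3, chr5:151651209-151651458, minus strand: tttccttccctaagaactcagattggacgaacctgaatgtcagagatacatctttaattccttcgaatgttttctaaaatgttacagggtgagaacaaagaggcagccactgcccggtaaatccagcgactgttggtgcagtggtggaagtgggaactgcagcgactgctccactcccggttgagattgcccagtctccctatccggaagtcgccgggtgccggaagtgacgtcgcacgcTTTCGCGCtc
Mcm6 held 3 matches, which began 110, 106 and 47 bases before the start, and the first 2 overlap. Mcm5 held 2 overlapping matches, 153 and 149 bases before the start. Rfc3 held 1, 10 bases before it.

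The deposited values are log2 intensities between -0.4 and 15.98, with a median of 4.34 over all features. The table carries no detection flags; 35 of the 38 members had a mean above that median, and Orc1 (3.91), Pola2 (4.11) and Ccne2 (4.29) lay below it, where a low signal is hard to tell from background. AT2 markers were high throughout: the mean of 10 AT2 genes was 10.93 to 12.26 on the 16 arrays, and Sftpc, the surfactant protein C gene, was at or above 15.95 on each. Fgf10 itself, the gene deleted on 1 allele, was 4.02 to 5.38 on the 6 Fgf10+/- arrays and 4.27 to 5.89 on the 10 wild-type arrays; these ranges overlap near the median of all features, and say nothing on the genotype labels. RNA of other cells was present too. The mean of 5 thymocyte genes (Rag1, Dntt, Ptcra, Cd8a and Ccr9, which act in or mark developing T cells) was 3.64 to 4.82 on 12 arrays but 7.22 on wild-type normoxia array 4 and 6.04, 7.10 and 5.88 on Fgf10+/- normoxia arrays 1, 2 and 4. All 4 arrays that stand apart, called the thymocyte-high arrays below, are normoxia arrays, and leaving them out drops array 4 from wild-type normoxia and leaves only array 3 in Fgf10+/- normoxia. The hyperoxia medians of the roles and the hyperoxia differences of the members named under them are therefore given from all arrays and then without these 4 (second features of a gene from all arrays only). Wild-type normoxia array 1 was not among the 4, with a 5-gene thymocyte mean of 4.59, but differed from its group in other ways. Its mean of 8 smooth muscle and pericyte genes was 9.05, against 6.38 to 6.81 on the other 3. Its mean of 11 other thymocyte and T cell genes was 6.51, against 5.75, 5.32 and 7.46 on arrays 2, 3 and 4. It also had the highest fibroblast (10.84), B cell (6.3) and erythroid (9.56) means of its group. In bulk RNA, fewer cells of a type and less RNA per cell cannot be told apart.

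The replication genes moved together from array to array. Their mean over 38 genes was 6.56 to 7.17 on the 6 wild-type hyperoxia arrays, and 7.56, 7.04, 6.86 and 8.37 on wild-type normoxia arrays 1 to 4. It was 6.71 and 6.92 on the Fgf10+/- hyperoxia arrays, against 7.76, 8.41, 6.99 and 7.70 on Fgf10+/- normoxia arrays 1 to 4. The groups overlapped in the wild type and did not in Fgf10+/-. Wild-type normoxia array 4 was the highest of its group for 36 of the 38 genes and Fgf10+/- normoxia array 2 for 32, while Fgf10+/- normoxia array 3, which is low in thymocyte genes, was the lowest of its group for 31. For 35 of the 38 genes the highest of all 16 values lay on one of the 4 arrays high in thymocyte genes.

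**Figure D1:**
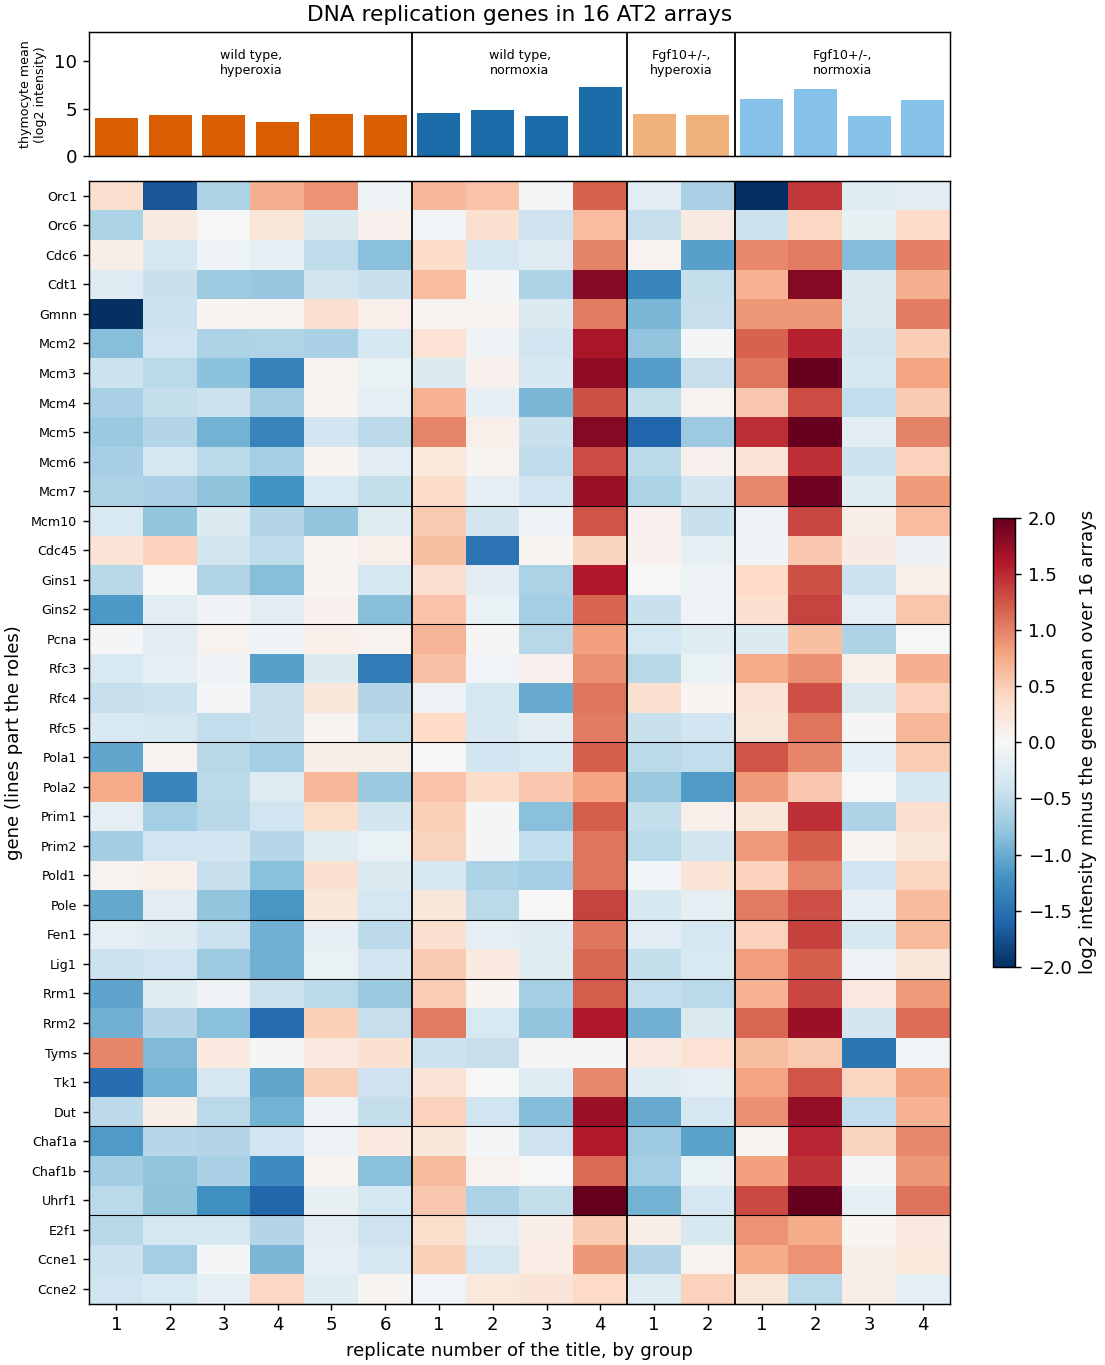
Colour shows each gene's log2 intensity minus its mean over 16 arrays, with genes in rows by role and arrays in columns by group; bars above give the mean of 5 thymocyte genes per array (log2 intensity). Wild-type normoxia array 4 and Fgf10+/- normoxia array 2 are red in nearly every row, and they also have the tallest bars (7.22 and 7.10).

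After group means were removed, the median Pearson correlation between 2 members over the 16 arrays was 0.65, and 69.7% of the 703 pairs lay over 0.5. This describes arrays that share RNA sources and is given without a test. Mcm7, a subunit of the replicative helicase, followed the mean of the other members most closely (r = 0.98), and Cdt1, Mcm4, Mcm5, Mcm6, Gins1, Dut and Uhrf1 had an r of 0.95 or 0.96. Ccne2, a G1/S cyclin, had an r of -0.24 and Pola2 an r of 0.25; both are dim here.

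In the wild type, replication genes were mostly lower in hyperoxia than in normoxia, but none passed the test. Of the 38 members 36 had a negative difference, as did 58.3% of all genes, and their median log2 difference was -0.66, against -0.08 over all genes. With limma and a Benjamini-Hochberg adjusted p under 0.05, 0 of 38 members were called in either direction, where 3.13% of all genes were. At an unadjusted p under 0.05, 19 of 38 (50.0%) were lower and 0 higher, against 10.8% and 7.41% of all genes. The wild-type groups did not overlap, with hyperoxia lower, for 2 members (5.26%) and for 4.02% of all genes. Without the arrays high in thymocyte genes (array 4 in wild-type normoxia) the members' median was -0.37, with 34 of 38 negative, and 7 members had an unadjusted p under 0.05 (Mcm2, Mcm5, Mcm7, Rfc3, Lig1, Chaf1b and E2f1), all lower; 8.55% of all genes were lower by that rule. When wild-type normoxia array 1 was left out too, the median was -0.20, with 28 of 38 negative. By limma with other settings, the called members, all lower, were Chaf1b when features were averaged per gene (1 of 38, or 2.63%, against 1.12% of all genes lower), Rfc3 and Chaf1b with dim genes removed (2 of 35, or 5.71%, against 4.29%), and Lig1 and Chaf1b with robust trended variances (2 of 38, or 5.26%, against 2.44%).

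In Fgf10+/- cells the members also had lower values in hyperoxia, and again none was called. The difference was negative for 36 of 38, as for 53.4% of all genes, with a median of -0.95 against -0.04. With limma, 0 of 38 were called at a Benjamini-Hochberg adjusted p under 0.05, where 2.45% of all genes were. At an unadjusted p under 0.05, 20 of 38 (52.6%) were lower and 0 higher, against 9.36% and 7.35% of all genes, and 18 (47.4%) had hyperoxia values wholly below normoxia, as did 13.6% of all genes. Without the 3 Fgf10+/- normoxia arrays high in thymocyte genes, 1 normoxia array was left, whose spread is assumed to be that of the other groups; the median was then -0.24, with 27 negative and 11 positive. By that fit 1 member was lower at an unadjusted p under 0.05 (Chaf1a) and 1 higher (Tyms), where 4.72% and 4.74% of all genes were. With dim genes removed, limma called Mcm5 lower (1 of 35, or 2.86%, against 3.14% of all genes). The part of thymocyte RNA in these differences was not tested beyond such values.

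Marker genes of other cell types also differed with hyperoxia. All 5 thymocyte genes had a negative difference in both genotypes, with medians of -1.03 in the wild type and -1.24 in Fgf10+/-. Without the thymocyte-high arrays, chosen by these genes, the medians were -0.12 and -0.1. Of 11 other thymocyte and T cell genes, 11 were negative in the wild type and 10 in Fgf10+/-. Their median was -0.88 in each, and -0.36 and 0.0 without those arrays. In both lists 0 genes were called by limma, where 3.13% and 2.45% of all genes were. The mean of 8 endothelial genes was 8.03 to 9.24 in wild-type hyperoxia, against 7.90 to 8.36 in wild-type normoxia, and 7.88 and 9.24 in Fgf10+/- hyperoxia, against 6.98 to 7.53 in Fgf10+/- normoxia. All 8 had a positive difference in both genotypes, with medians of 0.46 in the wild type and 1.14 in Fgf10+/- (0.44 and 1.32 without the thymocyte-high arrays). None was called in the wild type and 2 were in Fgf10+/-: Cldn5, a tight junction gene, rose by 2.08 (SE 0.41, Benjamini-Hochberg adjusted p = 0.0174 by limma), and Egfl7, a secreted endothelial protein, by 2.46 (SE 0.42, adjusted p = 0.00714); without the thymocyte-high arrays their adjusted p were 0.289 and 0.256 by limma. The mean of 8 smooth muscle and pericyte genes was 7.31 to 8.36 in wild-type hyperoxia, against 6.38 to 9.05 in wild-type normoxia, and 7.51 on both Fgf10+/- hyperoxia arrays, against 6.18 to 6.98 in Fgf10+/- normoxia. Of these, 8 had a positive difference in the wild type (median 0.51) and 7 in Fgf10+/- (median 1.16), and 0 were called by limma. The AT2 mean was 11.18 to 12.12 in wild-type hyperoxia, against 11.78 to 12.26 in wild-type normoxia, and 10.93 and 11.99 in Fgf10+/- hyperoxia, against 11.33 to 12.12 in Fgf10+/- normoxia; 8 of 10 AT2 genes had a negative difference in each genotype, with a median of -0.35 in each, and 0 were called. In the fibroblast, macrophage, erythroid, B cell and AT1 lists 0 genes were called, with list medians between -0.16 and 0.27 in the wild type and between -0.06 and 0.58 in Fgf10+/-. The part of these cell types in the members' differences was not tested.

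**Figure D2:**
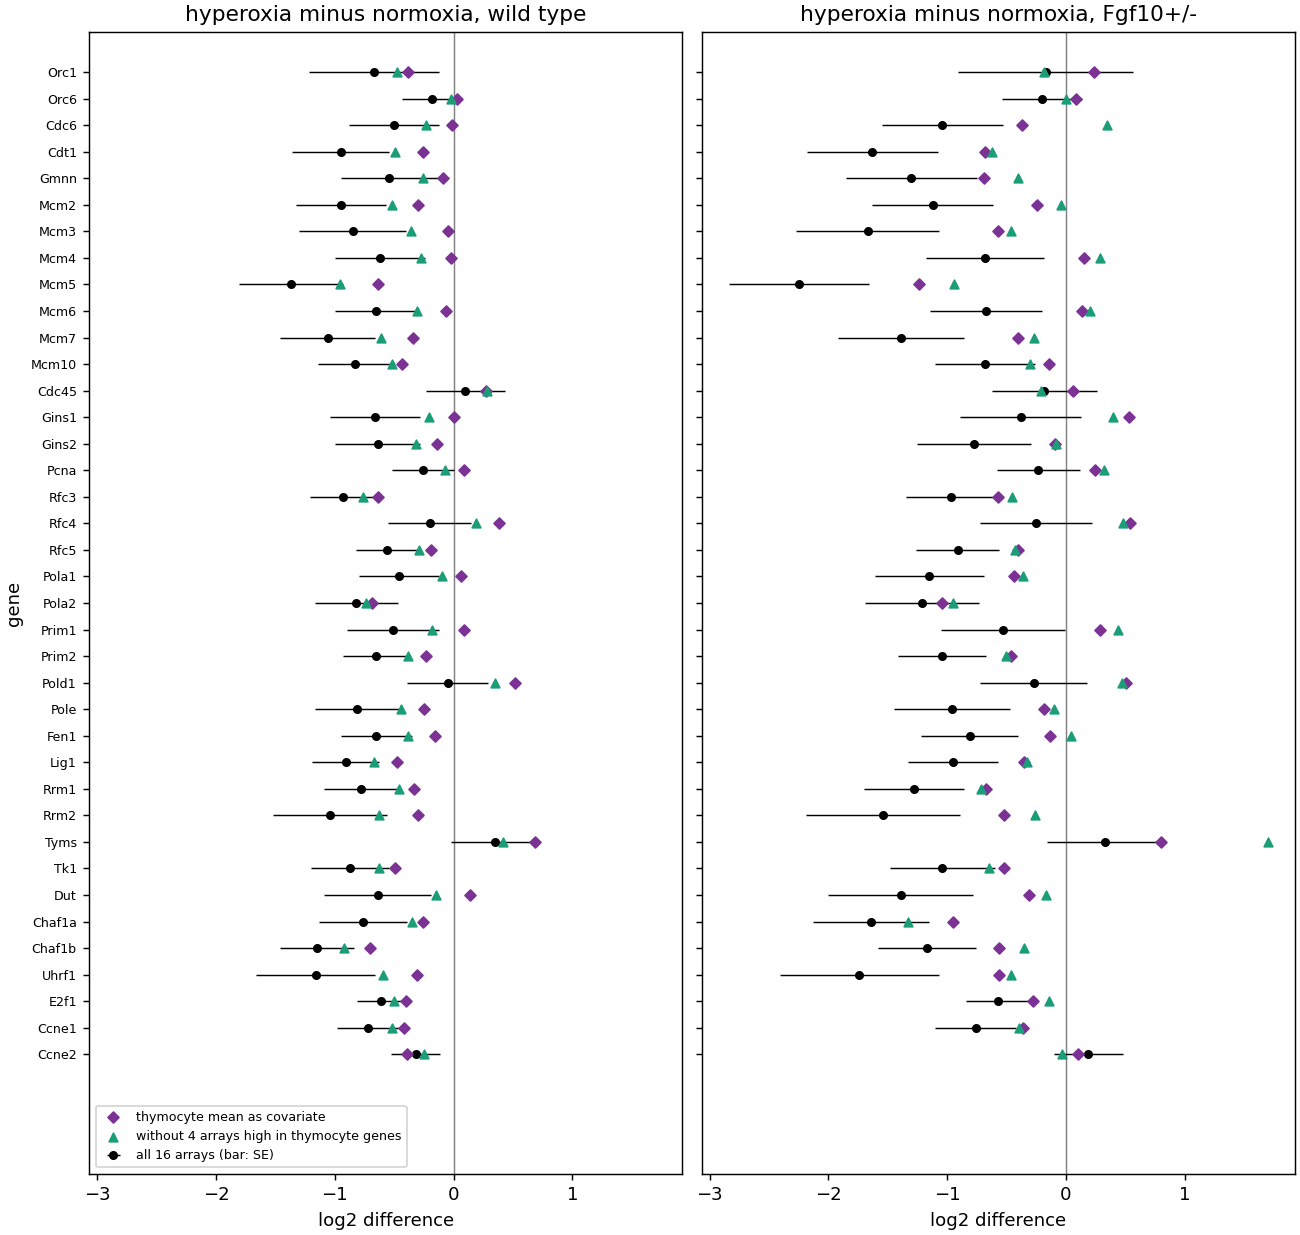
Points give each member's log2 difference, hyperoxia minus normoxia, in wild type (left) and Fgf10+/- (right): circles from all 16 arrays with the standard error as a bar, diamonds with the thymocyte mean as a covariate, triangles without the 4 arrays high in thymocyte genes. The circles lie below 0 for 36 of 38 genes in each panel, and most diamonds and triangles lie nearer to 0.

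Origin licensing genes, which load the helicase, were 11 of the members. All 11 had a negative difference in both genotypes, with a median of -0.67 in the wild type and -1.12 in Fgf10+/-; without the thymocyte-high arrays 11 and 7 did, with medians of -0.36 and -0.18. Mcm6, a helicase subunit, was 10.25, 10.48 and 10.97 (lowest, median, highest) in wild-type hyperoxia, and 11.12, 10.97, 10.40 and 12.22 in wild-type normoxia. It was 10.37 and 11.00 in Fgf10+/- hyperoxia, against 11.19, 12.38, 10.49 and 11.37 in Fgf10+/- normoxia. The groups overlapped in both genotypes, and the highest value of each normoxia group was on an array high in thymocyte genes. Mcm6 differed by -0.65 (SE 0.35, Benjamini-Hochberg adjusted p = 0.341 by limma) in the wild type and by -0.67 (SE 0.47, adjusted p = 0.516) in Fgf10+/-, and without the thymocyte-high arrays these were -0.31 and, with the sign turned, 0.20.

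Mcm5, another subunit of that helicase, had the lowest difference of any member in both genotypes over all arrays. Without the thymocyte-high arrays Chaf1a (-1.33) and the dim Pola2 (-0.95) were lower in Fgf10+/-. In wild-type hyperoxia it was 6.37, 7.04 and 7.33 (lowest, median, highest), against 8.69, 7.81, 7.27 and 9.54 in wild-type normoxia. In Fgf10+/- hyperoxia it was 6.12 and 6.98, against 9.19, 9.83, 7.50 and 8.70 in Fgf10+/- normoxia. The wild-type groups overlapped at normoxia array 3, and the Fgf10+/- groups did not overlap. The Fgf10+/- difference was -2.25 (SE 0.59, 4.76-fold lower, Benjamini-Hochberg adjusted p = 0.0543 by limma) and the wild-type one -1.37 (SE 0.44, adjusted p = 0.103). Without the arrays high in thymocyte genes these were -0.94 (adjusted p = 0.645) and -0.96 (adjusted p = 0.185). Of the other helicase subunits, Mcm2, Mcm3, Mcm4 and Mcm7 had wild-type differences between -1.06 and -0.62 and Fgf10+/- differences between -1.67 and -0.68; without the thymocyte-high arrays these lay between -0.61 and -0.27 and between -0.46 and 0.29, Mcm4 being the positive one. Cdt1, the loading factor, had -0.95 in the wild type and -1.63 in Fgf10+/-, and without the thymocyte-high arrays -0.49 and -0.62. Gmnn, its inhibitor geminin, had -0.54 in the wild type and -1.30 in Fgf10+/-, and -0.26 and -0.40 without them. A second, dim Gmnn feature (mean 4.15) gave -0.24 in the wild type and 0.07 in Fgf10+/- over all arrays. A second Mcm3 feature (mean 8.38) gave -1.32 and -1.52. Orc6, an origin recognition subunit, had the licensing difference nearest to 0 in the wild type (-0.18, and -0.02 without the thymocyte-high arrays).

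Origin firing genes, which turn the loaded ring into a working helicase, had medians of -0.65 in the wild type and -0.53 in Fgf10+/- (-0.27 and -0.14 without the thymocyte-high arrays). Gins1, a GINS subunit, was 5.34, 5.74 and 6.23 (lowest, median, highest) in wild-type hyperoxia and 6.53, 5.96, 5.56 and 7.80 in wild-type normoxia. It was 6.19 and 6.11 in Fgf10+/- hyperoxia, against 6.60, 7.47, 5.76 and 6.29 in Fgf10+/- normoxia. Groups overlapped in both genotypes. The difference was -0.66 (SE 0.38, Benjamini-Hochberg adjusted p = 0.381 by limma) in the wild type and -0.38 (SE 0.51, adjusted p = 0.773) in Fgf10+/-, against -0.21 and, with the sign turned, 0.40 without the thymocyte-high arrays. Mcm10, which acts at firing, had -0.83 in the wild type and -0.68 in Fgf10+/- (-0.52 and -0.30 without those arrays). Cdc45, a partner of the ring, had 0.10 and -0.18 (0.28 and -0.21 without them).

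Clamp and clamp loader genes had medians of -0.41 in the wild type and -0.58 in Fgf10+/- (-0.18 and -0.06 without the thymocyte-high arrays). Pcna, the sliding clamp, had small differences: it was 10.37, 10.60 and 10.69 (lowest, median, highest) in wild-type hyperoxia, against 11.27, 10.62, 10.03 and 11.41 in wild-type normoxia. In Fgf10+/- it was 10.23 and 10.35 in hyperoxia, against 10.32, 11.19, 9.97 and 10.58 in normoxia. The groups overlapped in both genotypes. The differences were -0.26 (SE 0.26, Benjamini-Hochberg adjusted p = 0.661 by limma) in the wild type and -0.23 (SE 0.35, adjusted p = 0.808) in Fgf10+/-, and -0.07 and 0.32 without the thymocyte-high arrays.

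Rfc3, a small subunit of the clamp loader, was 3.77, 4.87 and 5.09 (lowest, median, highest) in wild-type hyperoxia, against 5.74, 5.11, 5.25 and 6.08 in wild-type normoxia, with no overlap. In Fgf10+/- it was 4.60 and 5.03 in hyperoxia, against 5.91, 6.07, 5.27 and 5.88 in normoxia, again with no overlap. The difference was -0.93 in the wild type (SE 0.28, Benjamini-Hochberg adjusted p = 0.0866 by limma) and -0.97 in Fgf10+/- (SE 0.38, adjusted p = 0.206). Without the thymocyte-high arrays it was -0.76 in the wild type (adjusted p = 0.275 by limma) and -0.45 in Fgf10+/- (adjusted p = 0.834). The loader subunits Rfc4 and Rfc5 had -0.20 and -0.56 in the wild type, and 0.19 and -0.29 without those arrays. A second Rfc4 feature (mean 6.09) gave -0.23 in the wild type over all arrays.

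Polymerase and primase genes had medians of -0.58 in the wild type and -1.0 in Fgf10+/-, with all 6 negative in each; without the thymocyte-high arrays the medians were -0.28 and -0.23, with 5 and 4 negative. Pold1, the catalytic subunit of polymerase delta, was the exception in size. It was 6.91, 7.63 and 8.05 (lowest, median, highest) in wild-type hyperoxia, and 7.42, 7.12, 7.07 and 8.81 in wild-type normoxia. It was 7.69 and 8.01 in Fgf10+/- hyperoxia, and 8.20, 8.73, 7.37 and 8.17 in Fgf10+/- normoxia. All groups overlapped; the differences were -0.05 (SE 0.34, Benjamini-Hochberg adjusted p = 0.961 by limma) in the wild type and -0.27 (SE 0.45, adjusted p = 0.827) in Fgf10+/-. With the thymocyte-high arrays left out they were 0.35 and 0.47. Pole, the catalytic subunit of polymerase epsilon, had -0.81 in the wild type and -0.96 in Fgf10+/- over all arrays, and -0.44 and -0.10 without the thymocyte-high arrays. Other, dim Pole features gave -0.89 and -0.09 (mean 4.18) and 0.11 and 0.33 (mean 3.64) over all arrays. Pola1, the catalytic subunit of polymerase alpha, had -0.46 and -1.15 over all arrays, and -0.10 and -0.36 without the thymocyte-high arrays.

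Lig1, the ligase that seals lagging strand pieces, was 8.06, 8.6 and 8.89 (lowest, median, highest) in wild-type hyperoxia, and 9.55, 9.22, 8.77 and 10.17 in wild-type normoxia. It was 8.54 and 8.72 in Fgf10+/- hyperoxia, against 9.86, 10.22, 8.95 and 9.25 in Fgf10+/- normoxia. Only normoxia array 3 overlapped with hyperoxia in the wild type, and there was no overlap in Fgf10+/-. The differences were -0.91 (SE 0.28, Benjamini-Hochberg adjusted p = 0.0898 by limma) in the wild type and -0.95 (SE 0.38, adjusted p = 0.212) in Fgf10+/-. When the thymocyte-high arrays were left out they were -0.67 (adjusted p = 0.193 by limma) and -0.33 (adjusted p = 0.838). Fen1, the flap nuclease that trims those pieces, had -0.65 and -0.81, and -0.38 and 0.04 without these arrays.

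Nucleotide supply genes had medians of -0.78 in the wild type and -1.28 in Fgf10+/- (-0.46 and -0.26 without the thymocyte-high arrays). Rrm2, the small subunit of ribonucleotide reductase, was 7.39, 8.20 and 9.40 (lowest, median, highest) in wild-type hyperoxia, and 9.95, 8.61, 8.14 and 10.53 in wild-type normoxia. In Fgf10+/- it was 7.96 and 8.63 in hyperoxia, against 10.07, 10.64, 8.56 and 10.04 in normoxia. Both genotypes overlapped, and wild-type hyperoxia array 5 was the high one of its group. The differences were -1.04 (SE 0.48, Benjamini-Hochberg adjusted p = 0.268 by limma) in the wild type and -1.54 (SE 0.65, adjusted p = 0.243) in Fgf10+/-. Leaving out wild-type normoxia array 4 alone gave -0.63 in the wild type, and leaving out the 3 thymocyte-high arrays of Fgf10+/- gave -0.26 there. Dut, which clears dUTP, had -0.64 and -1.39, and -0.15 and -0.17 without the thymocyte-high arrays. Tyms, thymidylate synthase, ran the other way by 0.35 in the wild type and 0.33 in Fgf10+/- (SE 0.37 and 0.49). Without those arrays it did so by 0.42 and 1.70, at a mean intensity of 4.40, close to the median of all features. The 1.70 rests on Fgf10+/- normoxia array 3 alone, where Tyms was 2.94, against 5.00, 4.92 and 4.34 on arrays 1, 2 and 4.

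Chromatin copying genes had medians of -1.15 in the wild type and -1.64 in Fgf10+/- over all arrays, and -0.59 and -0.46 without the thymocyte-high arrays. Chaf1b, a subunit of the chromatin assembly factor that places histones on new DNA, was 7.24, 7.76 and 8.57 (lowest, median, highest) in wild-type hyperoxia, against 9.12, 8.57, 8.5 and 9.63 in wild-type normoxia. It was 7.82 and 8.36 in Fgf10+/- hyperoxia, against 9.31, 9.94, 8.45 and 9.36 in Fgf10+/- normoxia. Hyperoxia array 5 alone reached into the normoxia range in the wild type, and the Fgf10+/- groups did not overlap. Chaf1b had the smallest wild-type p of any member, with a difference of -1.15 (SE 0.31, 2.22-fold lower, Benjamini-Hochberg adjusted p = 0.0513 by limma), and differed by -1.17 (SE 0.41, adjusted p = 0.156) in Fgf10+/-. Leaving out the thymocyte-high arrays gave -0.92 in the wild type (adjusted p = 0.141 by limma) and -0.35 in Fgf10+/- (adjusted p = 0.860), and a second Chaf1b feature gave -1.27 in the wild type over all arrays.

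Chaf1a, the large subunit of the same factor, was 4.94, 5.60 and 6.27 (lowest, median, highest) in wild-type hyperoxia, and 6.29, 6.04, 5.65 and 7.66 in wild-type normoxia. It was 5.35 and 5.00 in Fgf10+/- hyperoxia, against 6.12, 7.59, 6.51 and 7.03 in Fgf10+/- normoxia. The wild-type groups overlapped and the Fgf10+/- groups did not. The Fgf10+/- difference was -1.64 (SE 0.49, Benjamini-Hochberg adjusted p = 0.0925 by limma) and the wild-type one -0.76 (SE 0.37, adjusted p = 0.28). Without the thymocyte-high arrays the Fgf10+/- difference was -1.33 (adjusted p = 0.399 by limma) and the wild-type one -0.35 (adjusted p = 0.587). Uhrf1, which brings the maintenance methyltransferase to new DNA, had -1.16 in the wild type and -1.74 in Fgf10+/- over all arrays, and -0.59 and -0.46 without these. A second, dim Uhrf1 feature (mean 4.31) gave -0.06 in the wild type and -0.29 in Fgf10+/- over all arrays.

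G1/S control genes, which commit a cell to S phase, had medians of -0.61 in the wild type and -0.57 in Fgf10+/- (-0.50 and -0.14 without the thymocyte-high arrays). E2f1, a transcription factor for many of the genes above, was 6.43, 6.64 and 6.79 (lowest, median, highest) in wild-type hyperoxia, against 7.37, 6.80, 7.15 and 7.54 in wild-type normoxia, with no overlap (the highest hyperoxia and the lowest normoxia value are close). It was 7.13 and 6.70 in Fgf10+/- hyperoxia, and 7.92, 7.76, 7.05 and 7.21 in Fgf10+/- normoxia, where the groups overlapped. The differences were -0.61 (SE 0.20, Benjamini-Hochberg adjusted p = 0.122 by limma) in the wild type and -0.57 (SE 0.27, adjusted p = 0.308) in Fgf10+/-, and -0.50 and -0.14 without the thymocyte-high arrays.

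Ccne1, the cyclin that activates Cdk2 at the start of S phase, was 6.27, 6.80 and 7.15 (lowest, median, highest) in wild-type hyperoxia, and 7.66, 6.85, 7.33 and 8.06 in wild-type normoxia. It was 6.60 and 7.24 in Fgf10+/- hyperoxia, and 7.93, 8.08, 7.30 and 7.39 in Fgf10+/- normoxia. Only normoxia array 2 overlapped with hyperoxia in the wild type, and the Fgf10+/- groups did not overlap. The differences were -0.72 (SE 0.26, Benjamini-Hochberg adjusted p = 0.147 by limma) in the wild type and -0.76 (SE 0.34, adjusted p = 0.279) in Fgf10+/-, and -0.52 and -0.39 without those arrays. A second, dim Ccne1 feature (mean 4.39) gave 0.60 in the wild type over all arrays.

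**Figure D3:**
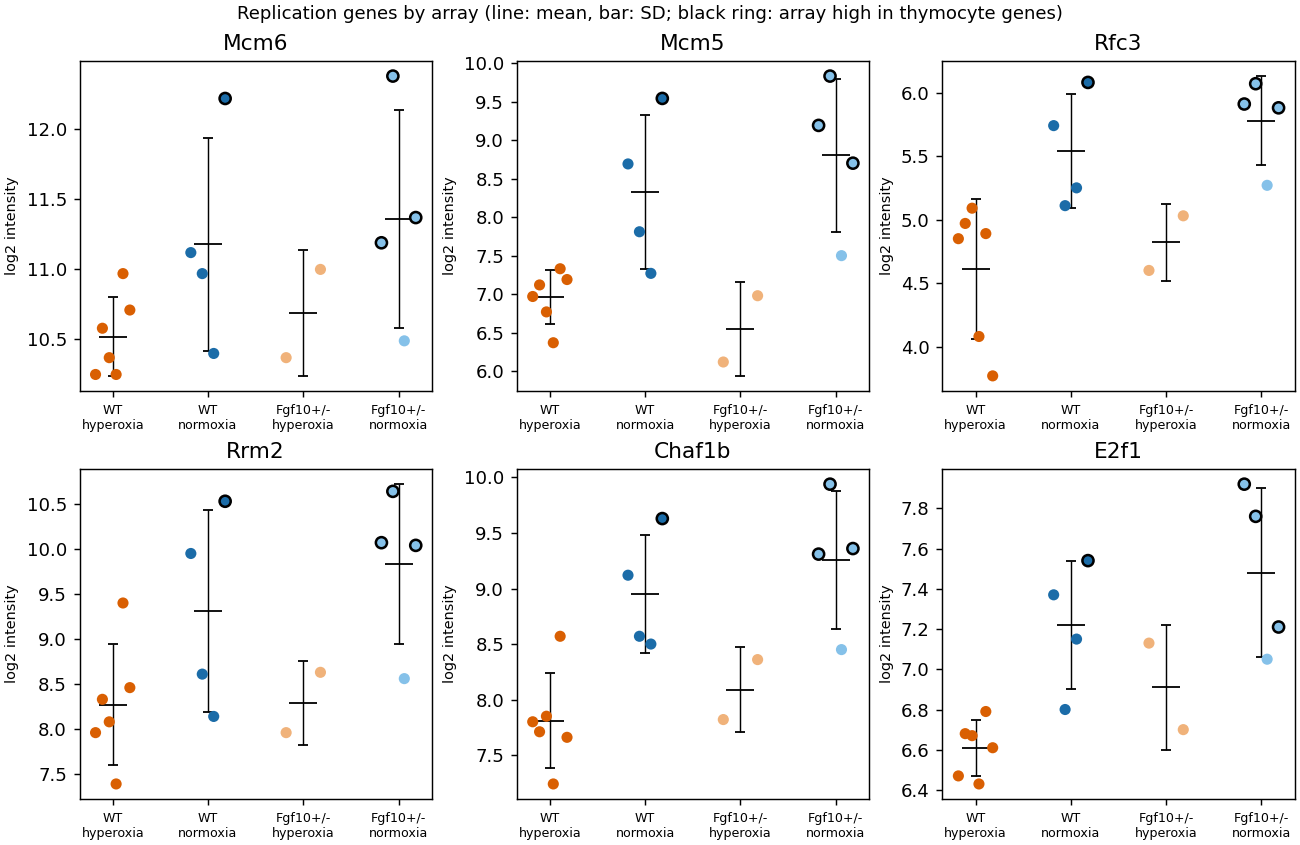
Each point is the log2 intensity of 1 array for 6 members, with the group mean as a line and the SD as a bar (n = 6, 4, 2 and 4 in the order drawn); black rings mark the 4 arrays high in thymocyte genes. For Rfc3 and E2f1 all wild-type hyperoxia points lie below all wild-type normoxia points; ringed points are among the highest in both normoxia groups.

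Genotype differences were small beside the spread. In normoxia 33 of 38 members had higher values in Fgf10+/- than in the wild type, as did 47.9% of all genes, with a median of 0.29 against -0.01. With limma, 0 of 38 were called at a Benjamini-Hochberg adjusted p under 0.05, where 0.00965% of all genes were, and 0 had an unadjusted p under 0.05, as 6.03% of all genes did. Without the 4 arrays high in thymocyte genes, 3 of which are Fgf10+/-, the median was -0.16 with 13 positive, and 0.04 with 21 positive when wild-type normoxia array 1 was left out too.

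Tk1, thymidine kinase, had the smallest p among members in this comparison. It was 8.08, 8.54, 7.71 and 8.09 in Fgf10+/- normoxia, and 7.56, 7.28, 7.03 and 8.24 in wild-type normoxia. Only wild-type array 4 reached into the Fgf10+/- range; the difference was 0.58 (SE 0.36, Benjamini-Hochberg adjusted p = 0.912 by limma). Rrm1, the large subunit of ribonucleotide reductase, was 8.93, 9.57, 8.43 and 9.08 in Fgf10+/- normoxia, and 8.73, 8.28, 7.55 and 9.44 in wild-type normoxia. Its groups overlapped, with a difference of 0.50 (SE 0.34, Benjamini-Hochberg adjusted p = 0.915 by limma). Without the thymocyte-high arrays, which leaves only array 3 in Fgf10+/- normoxia, the difference was 0.42 for Tk1 and 0.25 for Rrm1.

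In hyperoxia 22 of 38 members had higher values in Fgf10+/- than in the wild type, as did 52.7% of all genes, and the median was 0.12 against 0.02. With limma, 0 of 38 were called at a Benjamini-Hochberg adjusted p under 0.05, as were 0.0% of all genes; 0 members had an unadjusted p under 0.05, where 4.37% of all genes did. Pola2, the accessory subunit of polymerase alpha, was 3.36 and 2.98 in Fgf10+/- hyperoxia, against 2.78, 3.70 and 4.84 (lowest, median, highest) in wild-type hyperoxia. These dim values overlapped, with a difference of -0.69 (SE 0.45, Benjamini-Hochberg adjusted p = 1.0 by limma). E2f1, with the values given above, had the next smallest p, at 0.31 (SE 0.26). Pcna was the only member whose Fgf10+/- hyperoxia values (10.23 and 10.35) lay wholly below those of wild-type hyperoxia (10.37 to 10.69), 1 of 38 or 2.63%, against 3.31% of all genes.

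The hyperoxia difference of Fgf10+/- minus that of the wild type, tested as an interaction, was negative for 32 of 38 members and for 46.2% of all genes, with a median of -0.17 against 0.04. With limma, 0 of 38 members were called at a Benjamini-Hochberg adjusted p under 0.05, where 0.00965% of all genes were, and 0 had an unadjusted p under 0.05, where 4.11% of all genes did. Chaf1a (-0.87, SE 0.61) and Ccne2 (0.51, SE 0.36) had the smallest p. Ccne2, another cyclin E, was 4.05 and 4.75 in Fgf10+/- hyperoxia and 4.54, 3.76, 4.43 and 4.11 in Fgf10+/- normoxia. It was 3.90, 4.07 and 4.71 (lowest, median, highest) in wild-type hyperoxia and 4.24, 4.51, 4.55 and 4.70 in wild-type normoxia. All its groups overlapped, near the median of all features. The interaction is formed from the hyperoxia differences of both genotypes, so the larger hyperoxia median in Fgf10+/- is not a result separate from it. Without the arrays high in thymocyte genes the interaction median was 0.23.

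Replication genes followed the thymocyte genes within the normoxia groups, where the thymocyte mean varied most. Its SD was 1.36 in wild-type and 1.21 in Fgf10+/- normoxia, against 0.31 and 0.04 in hyperoxia. The 5 thymocyte genes were chosen with earlier results of these data known, so the slopes are a description. In a fit with the group means and the 5-gene thymocyte mean of each array, the slope was positive for 37 of 38 members, and 20 of 38 (52.6%) had a positive slope with a limma Benjamini-Hochberg adjusted p under 0.05, where 1.22% of all genes did; 0 had a negative one. By role these were 7 of 11 licensing genes, 1 of 4 firing genes, 1 of 4 clamp and loader genes, 5 of 6 polymerase and primase genes, both Okazaki fragment genes, 2 of 5 nucleotide genes, 2 of 3 chromatin genes and 0 of 3 G1/S genes. Uhrf1 had the highest slope, 0.83 (SE 0.13, Benjamini-Hochberg adjusted p = 0.00347 by limma), in log2 units per log2 unit of the thymocyte mean. Mcm3 had 0.78 (SE 0.10, adjusted p = 0.000826) and Mcm7 0.70 (SE 0.08, adjusted p = 0.000616). Rfc3, E2f1 and Ccne1, with slopes of 0.28, 0.20 and 0.28, were not called.

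This relation rests on few arrays. Without wild-type normoxia array 4 the slope was called for 2 members, Mcm3 and Mcm7 (and 0.294% of all genes), without Fgf10+/- normoxia array 3 for 10 (0.343% of all genes), and without Fgf10+/- normoxia array 2 for 11 (0.487%). With the mean of any of 8 other cell type lists in place of the thymocyte genes, 0 members were called. The share of all genes with a called positive slope was then 1.13% for fibroblast, 1.04% for smooth muscle and pericyte, 0.314% for erythroid, 0.203% for B cell, 0.154% for AT2, 0.125% for AT1, 0.111% for endothelial and 0.00965% for macrophage genes. In wild-type normoxia the SD of these 8 means was 0.21 to 1.23, against 1.36 for the thymocyte mean. In Fgf10+/- normoxia it was 0.16 to 0.67, against 1.21, while in hyperoxia some of the 8 varied more. A slope against them was thus harder to call, and the 0 does not single out the thymocyte genes. The list of 11 other thymocyte and T cell genes was not used in this way, and the source of the relation was not tested. With the thymocyte mean in the fit, the hyperoxia medians were -0.24 in the wild type and -0.33 in Fgf10+/-, and 4 members (Mcm5, Rfc3, Lig1 and Chaf1b) were lower in the wild type at an unadjusted p under 0.05, as 9.94% of all genes were. In Fgf10+/- 2 were (Mcm5 and Chaf1a), against 7.99% of all genes.

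**Figure D4:**
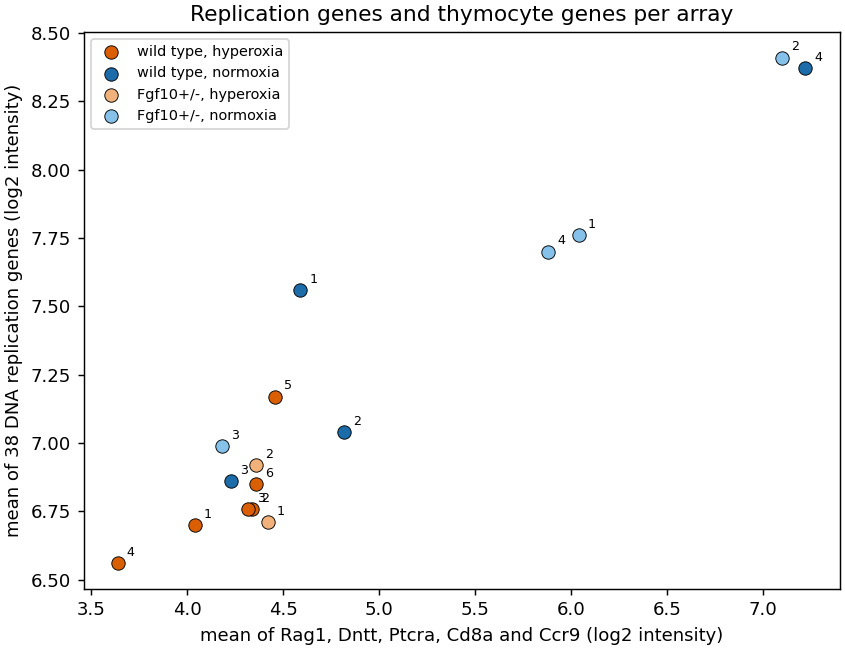
Each point is 1 array: its mean of 5 thymocyte genes across and its mean of 38 replication genes up, both in log2 intensity, coloured by group and numbered by replicate. The 4 arrays between 5.88 and 7.22 on the thymocyte axis lie between 7.70 and 8.41 on the other; wild-type normoxia array 1 lies at 7.56 with a thymocyte mean of 4.59.

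**Figure D5:**
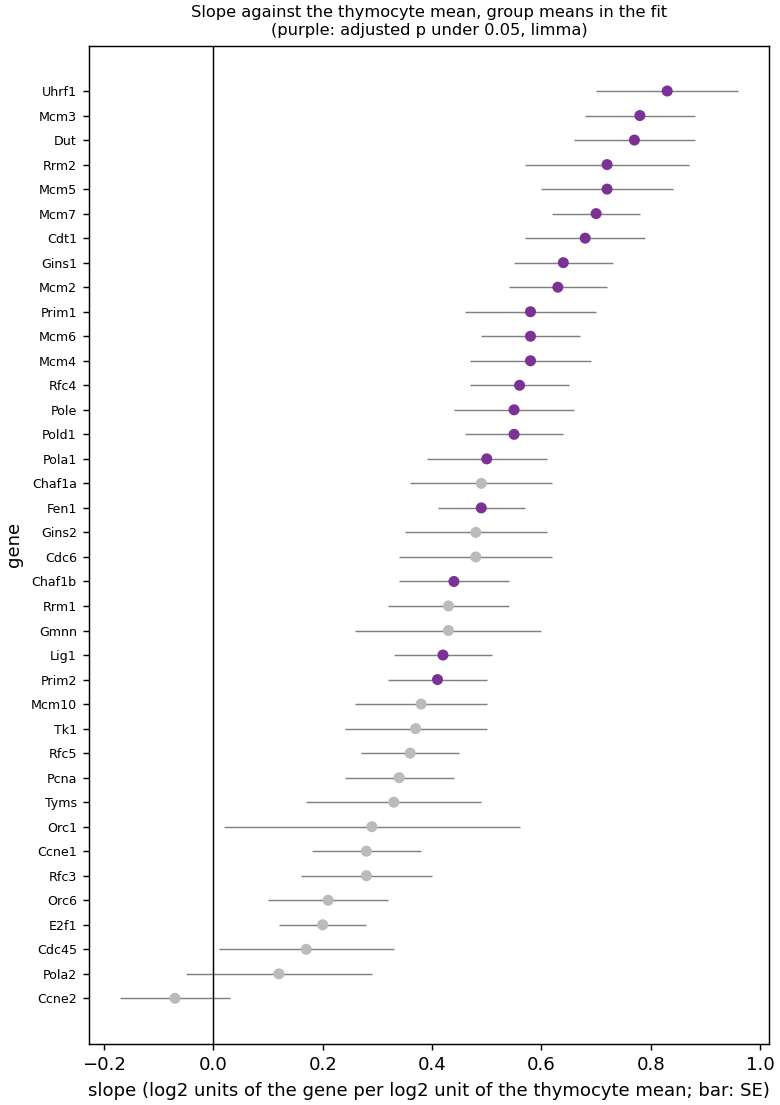
Points give each member's slope against the thymocyte mean with its standard error, from a fit that holds the group means; purple marks the 20 members with an adjusted p under 0.05 (limma). Slopes run between -0.07 (Ccne2) and 0.83 (Uhrf1).

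Other genes of the cell cycle were set beside the members from lists written for this description. Of 44 other replication genes, 31 had a negative wild-type hyperoxia difference, with a median of -0.18, and in Fgf10+/- 33 did, with a median of -0.31 (-0.10 and 0.02 without the thymocyte-high arrays). Of the 44, 1 was called in the wild type, where 3.13% of all genes were, and 0 in Fgf10+/-, where 2.45% were. The called gene was Nasp, a histone chaperone. It was 8.71 to 9.07 in wild-type hyperoxia, against 9.84, 9.54, 9.34 and 10.09 in wild-type normoxia, and fell by 0.83 (SE 0.20, Benjamini-Hochberg adjusted p = 0.0375 by limma), with no overlap. Its difference was -0.70 (adjusted p = 0.0972 by limma) without the arrays high in thymocyte genes. Of 22 other G1/S genes, 0 were called in either genotype, with medians of -0.40 in the wild type and -0.20 in Fgf10+/- (-0.28 and -0.09 without those arrays). Cyclin D3 (Ccnd3) and its kinase Cdk4, the 2 with the highest intensity, had wild-type differences of -0.06 and 0.22. Of 7 CDK inhibitors, which hold cells before S phase, 0 were called; Cdkn1a, the p53 target p21, was 9.75 to 10.24 in wild-type hyperoxia and 10.06, 10.45, 10.59 and 9.87 in wild-type normoxia, a difference of -0.24 (Benjamini-Hochberg adjusted p = 0.493 by limma), and 0.08 in Fgf10+/- (adjusted p = 0.905).

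Mitosis genes were lower in hyperoxia by a wider margin than the replication genes, a difference between the lists that was not tested. Of 22 measured, 21 had a negative difference in the wild type (median -0.93) and all 22 in Fgf10+/- (median -1.61). By limma 2 of the 22 were called in each genotype, all lower, where 3.13% and 2.45% of all genes were called in either direction. Kif23, a kinesin of the dividing cell's midzone, fell by 1.12 in wild-type hyperoxia (SE 0.24, Benjamini-Hochberg adjusted p = 0.0183 by limma). Cdca3, a mitotic entry factor, fell by 1.68 in the wild type (SE 0.35, adjusted p = 0.0128 with limma) and by 2.25 in Fgf10+/- (SE 0.47, adjusted p = 0.0202), and Prc1, which bundles midzone microtubules, fell by 1.73 in Fgf10+/- (SE 0.42, adjusted p = 0.0402). Without the arrays high in thymocyte genes the adjusted p of Kif23 and Cdca3 in the wild type were 0.113 and 0.0627 with limma, and those of Cdca3 and Prc1 in Fgf10+/- were 0.327 and 0.538; the medians of the list were -0.73 and -0.89. Mki67, a marker of cycling cells, differed by -0.92 in the wild type (SE 0.41, Benjamini-Hochberg adjusted p = 0.245 by limma) and by -1.57 in Fgf10+/- (SE 0.55, adjusted p = 0.159), and by -0.77 and -0.68 without those arrays. Against the thymocyte mean, 3 of 22 mitosis genes and 4 of 44 other replication genes had a called positive slope, as did 1.22% of all genes. The median slope was 0.42 for mitosis genes and 0.22 for other replication genes, against 0.48 for the members and -0.01 for all genes.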

How the data were processed

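RNA of 16 AT2 samples had been hybridised to 1-colour arrays. The deposited values are log2 intensities (the log base was inferred by range; what the authors did before that, in software, background correction and normalization, is not stated in the sources used here). The sorted values of the arrays differ by at most 0.204, so they share a distribution. Of 62976 features, 65 with a missing value were dropped; 31465 were named through RefSeq tables of GRCm38.p6, and the feature with the highest mean stood for each of 20725 genes. Groups followed the titles. limma 3.58.1 in R 4.3.3 fitted the 4 group means with 12 residual degrees of freedom, and p-values were Benjamini-Hochberg adjusted over all genes; the scripts were tested on simulated data. The number of arrays limits the precision. Values by array are given for the member of highest mean per role and, in the groups compared, for the 2 of smallest p per comparison. For wild-type hyperoxia these are the lowest, median and highest. Other members that carry a pattern are given by their differences. The members and gene lists were chosen with earlier results of these data known, the 5 thymocyte genes among them. Alternatives covered scaling, features, filter, spread, thymocyte genes, replicate block and left-out arrays. Arrays count as high in thymocyte genes when over 1 log2 unit above the median of 4.39.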

Additional observations from a re-analysis of the deposited data

Results flagged for a closer look

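Of 117 sets of values tested, 4 held an array far from the rest of its group. The sets were each member and the 5-gene thymocyte mean, in each of the 3 groups of 4 or more arrays. Chance alone gives about 1 in 20, so 4 is no more than chance gives. Gmnn was 3.60 on wild-type hyperoxia array 1, against 5.21 to 5.95 on the other arrays of that group. Rfc5 was 8.5 on wild-type hyperoxia array 5, against 7.93 to 8.13. Cdc6 was 3.87 on Fgf10+/- normoxia array 3, against 5.70 to 5.75, and Gmnn was 5.35 there, against 6.5 to 6.66. That array is the only one of its group not high in thymocyte genes, with a 5-gene mean of 4.18, against 6.04, 7.10 and 5.88.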

How the results depend on the processing

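Called members numbered 1 in the wild-type hyperoxia comparison with the mean of all features per gene (Chaf1b), 2 with dim genes removed (Rfc3 and Chaf1b) and 2 with robust trended variances (Lig1 and Chaf1b); in Fgf10+/-, 1 was called with dim genes removed (Mcm5); the shares of all genes beside these stand with the hyperoxia comparisons. Leaving out 1 array at a time gave 0 to 1 called members in each, by limma: Chaf1b without wild-type hyperoxia array 5 (0.883% of all genes called lower), Lig1 without wild-type normoxia array 3 (1.06%) and Mcm5 without Fgf10+/- normoxia array 3 (1.33%). In the Mcm5 case, all Fgf10+/- normoxia arrays left are high in thymocyte genes. Without the high arrays instead, the Fgf10+/- difference of Mcm5 was -0.94. With 1 array left out, the hyperoxia medians ran between -0.91 and -0.37 (wild type) and between -1.14 and -0.74 (Fgf10+/-). The genotype medians ran between 0.09 and 0.59 (normoxia arrays) and between -0.12 and 0.19 (hyperoxia arrays), that of the interaction between -0.45 and 0.06, and the number of called slopes between 2 and 24. The Fgf10+/- hyperoxia median was -0.33 with the thymocyte covariate and -0.24 without the high arrays; that of the wild type was -0.24, -0.37 and, also without wild-type normoxia array 1, -0.20. The genotype median in normoxia was -0.16 without the high arrays and 0.04 also without wild-type normoxia array 1, and the interaction median was 0.04 with the covariate, 0.23 without the high arrays and 0.02 also without wild-type normoxia array 1. Centring on the median of the named genes moved the median of all genes in the wild type to 0.03, that of the members being -0.54. Members that turned to a positive wild-type difference were Orc6 (0.03), Pcna (0.09), Rfc4 (0.38), Pola1 (0.06), Prim1 (0.09), Pold1 (0.52) and Dut (0.14) with the covariate, Rfc4 (0.19) and Pold1 (0.35) without the high arrays, Mcm4 (0.14), Gins1 (0.04), Pcna (0.25), Rfc4 (0.39), Pola1 (0.02), Prim1 (0.13), Pold1 (0.46) and Dut (0.22) also without wild-type normoxia array 1, and Pold1 (0.07) with gene centring; with 1 array left out, Pold1 ran between -0.23 and 0.35, Gins1 between -0.96 and -0.21 and Pcna between -0.52 and -0.07. In Fgf10+/-, Orc1 (0.24), Orc6 (0.09), Mcm4 (0.15), Mcm6 (0.14), Cdc45 (0.06), Gins1 (0.53), Pcna (0.25), Rfc4 (0.54), Prim1 (0.29) and Pold1 (0.51) did so with the covariate, and Cdc6 (0.35), Mcm4 (0.29), Mcm6 (0.20), Gins1 (0.40), Pcna (0.32), Rfc4 (0.48), Prim1 (0.44), Pold1 (0.47), Fen1 (0.04) and Orc6 (at 0.00) without the high arrays, where Ccne2 was -0.03; with 1 array left out, Ccne2 ran between -0.16 and 0.54, Gins1 between -0.63 and -0.06, Mcm6 between -0.99 and -0.33, Pcna between -0.41 and 0.0 and Pold1 between -0.52 and -0.06. The causes were not tested. Same-numbered samples had deviations that correlated between -0.16 and 0.24, so numbers were not taken as pairs; the replicate block gave 0 called members and medians of -0.79 in the wild type, -1.01 in Fgf10+/-, 0.29, 0.05 and -0.25.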
